A study of Mus musculus with 5 samples.

Results

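Runx3-bound regions that lay away from gene starts and away from the enhancer mark H3K4me1 were examined in IL-2-activated natural killer cells (NKC). They were selected from the joined Runx3 peak list by 2 measured positions: the peak centre had to lie 1 to 50 kb from the nearest transcription start site (TSS) of any GENCODE M1 transcript (mouse assembly mm9), and no H3K4me1 interval could lie within 2 kb of either peak edge. This gave 1945 of 11676 Runx3-bound regions. They are 1945 of the 7321 regions at 1 to 50 kb from a TSS. Of the others at this distance, 2630 had their centre inside an H3K4me1 interval and 2746 had an H3K4me1 interval within 2 kb but not over the centre. The 2630 regions centred inside H3K4me1 served as the comparison throughout. The distance to a TSS and the position of H3K4me1 chose the regions, so neither is tested here.

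The cells were splenic NKC of ICR mice, with no mutation or transgene named in the labels, purified by negative selection, grown for 7 days with 1000 units/ml of human IL-2 and described as positive for the NK receptor NKp46. Such cultures gave 2 Runx3 immunoprecipitations with an in-house polyclonal antibody, labelled as biological replicates, 1 H3K4me1 immunoprecipitation and 2 controls with non-immune serum (NIS). Reads of the replicates had been joined before peaks were called, and each peak is given by its position alone. No peak height, read depth or replicate spread could therefore be read from the lists, and a p-value below describes a difference between these sets of regions, not between animals or cultures. The H3K4me1 list rests on 1 library, and a region without a listed interval is not thereby shown to lack the mark.

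Runx3 is a transcription factor of the RUNX family that binds a short DNA motif and acts as activator or repressor, and it is needed for proliferation and maturation of cytotoxic lymphocytes. NKC are innate lymphocytes that kill infected or transformed cells with perforin and granzymes and proliferate in response to IL-2. Monomethylation of histone H3 at lysine 4 (H3K4me1) is deposited around active and poised enhancers, the distal elements that raise transcription of genes.

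To show sequence within the peaks, the reference sequence (NCBIM37, the Ensembl name of mm9, plus strand, 5′ to 3′) is given for 60 bp around the RUNX motif nearest the centre of members beside NK receptor, killing and integrin genes. Each stretch was picked for its motif, and the peak positions do not show which part of a peak was bound. Capitals mark RUNX motifs, that is TG, then T or C, then GG, then T or C, on either strand. The Klrk1 sequence lies at chr6:129558585-129558644, beyond the end of the gene of the activating receptor NKG2D. The Ncr1 sequence is at chr7:4315597-4315656, intergenic, beside the gene of NKp46 itself. The Fasl sequence is at chr1:163734821-163734880, intergenic, upstream of the gene of Fas ligand, which triggers death of target cells. The Il4ra sequence is at chr7:132682952-132683011, intergenic, upstream of the interleukin-4 receptor gene. The Itga4 sequence is at chr2:79106832-79106891, in an intron of the integrin alpha 4 gene.
Klrk1: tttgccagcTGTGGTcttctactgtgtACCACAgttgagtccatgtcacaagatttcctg
Ncr1: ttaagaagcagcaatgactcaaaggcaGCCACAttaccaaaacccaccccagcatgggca
Fasl: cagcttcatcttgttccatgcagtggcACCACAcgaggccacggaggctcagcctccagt
Il4ra: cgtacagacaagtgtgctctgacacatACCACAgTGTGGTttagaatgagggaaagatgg
Itga4: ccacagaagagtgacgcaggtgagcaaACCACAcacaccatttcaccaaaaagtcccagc

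Klrk1 and Il4ra held 2 RUNX motifs each in 60 bp, and in both the motifs pointed in opposite directions. A second set stands for members close to genes of transcription factors. Gata3 (chr2:9801299-9801358, intronic) encodes a lymphoid zinc finger factor, Satb1 (chr17:51953845-51953904, intronic) a chromatin organizer, Myc (chr15:61814945-61815004, intergenic) a driver of growth and proliferation, and Eomes (chr9:118397480-118397539, intergenic) a T-box factor of mature NKC.
Gata3: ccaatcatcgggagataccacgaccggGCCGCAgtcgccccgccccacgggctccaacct
Satb1: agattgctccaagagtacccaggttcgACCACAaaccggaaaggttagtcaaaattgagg
Myc: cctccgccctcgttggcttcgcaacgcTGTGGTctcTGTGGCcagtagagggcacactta
Eomes: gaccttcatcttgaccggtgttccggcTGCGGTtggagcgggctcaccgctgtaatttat

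A further set shows members with exceptional numbers of RUNX motifs, by the 120 bp that held most of them. The peak with the most, 55, lay 20.5 kb upstream of C1ql2, a secreted C1q-like protein, and the stretch shown is at chr1:122216300-122216419, intergenic. The Dyrk1a stretch (chr16:94919816-94919935, intergenic) came from a peak with 52 motifs beside this protein kinase gene, and the Stx6 stretch (chr1:157020127-157020246, in an intron of this syntaxin gene) from a peak with 34. Next came peaks beside Adam18 with 33 and Insr, the insulin receptor gene, with 31.
C1ql2: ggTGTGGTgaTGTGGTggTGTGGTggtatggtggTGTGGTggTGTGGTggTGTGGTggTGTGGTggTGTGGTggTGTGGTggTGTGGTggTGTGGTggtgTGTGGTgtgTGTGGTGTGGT
Dyrk1a: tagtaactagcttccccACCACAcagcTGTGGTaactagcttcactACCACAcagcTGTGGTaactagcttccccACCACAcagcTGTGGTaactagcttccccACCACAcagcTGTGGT
Stx6: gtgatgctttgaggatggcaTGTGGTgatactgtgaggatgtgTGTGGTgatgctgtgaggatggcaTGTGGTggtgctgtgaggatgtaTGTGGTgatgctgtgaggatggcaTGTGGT

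Most members were far from any H3K4me1 interval rather than just past the limit. The median gap from peak edge to the nearest interval was 25888 bp, 1388 of 1945 (71.4%) were over 10 kb away and 658 (33.8%) over 50 kb away, while 278 (14.3%) lay between 2 and 5 kb. For 664 members (34.1%) no H3K4me1 interval had its centre within 50 kb on either side. The farthest lay on the X chromosome near Hsd17b10, a mitochondrial dehydrogenase, 5871 kb from the mark, followed by X-linked members near Kdm5c, a histone H3K4 demethylase (5588 kb), and Eif2s3x, a translation initiation factor (5315 kb). On an autosome the farthest were a pair inside Gbe1, the glycogen branching enzyme, 4763 and 4802 kb away.

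**Figure D1:**
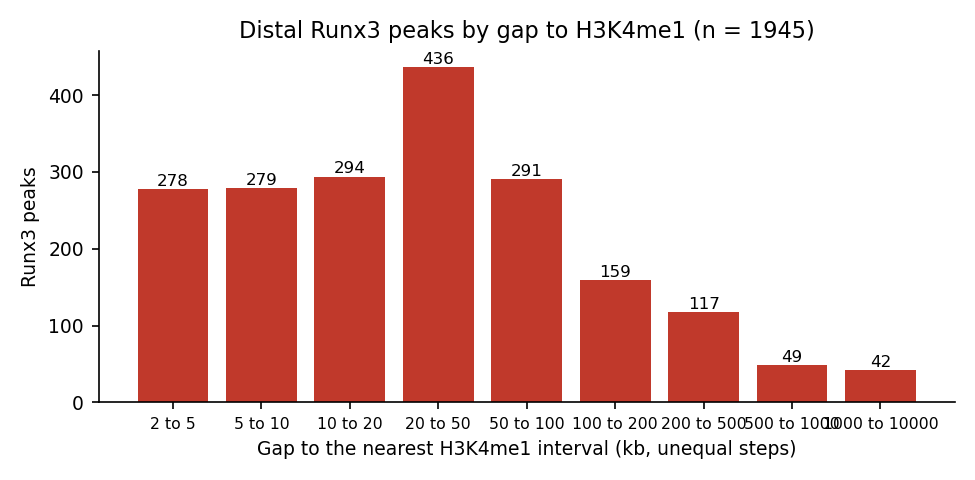
Number of distal Runx3-bound regions (vertical axis) by the gap in kb from the peak edge to the nearest H3K4me1 interval (horizontal axis, unequal steps). The largest class, 436 regions, lay 20 to 50 kb away, and 42 regions lay over 1000 kb away.

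At the limits of the rule the values lay close on both sides, as for any cut through a continuous measure. The 2 members nearest to a TSS were in Xpo1 (1001.5 bp) and on chromosome 10 near 9130014G24Rik (1006.5 bp), and the 2 peaks just left out were in Abca1 and near Vim, both at 999 bp. At the upper limit members at 49952 and 49992.5 bp faced excluded peaks in Stim1 (50043.5 bp) and Znrf2 (50091.5 bp). For the gap to H3K4me1, members near Dock8 (2009 bp) and Tubd1 (2011 bp) faced excluded peaks near Zfp36l1 (1999 bp) and Polr3e (1988 bp).

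Members lay between genes more often, and in introns less often, than regions centred inside H3K4me1. By the part of the gene at the peak centre, 955 members (49.1%, 95% Wilson interval 46.9 to 51.3) were intronic, against 1490 of 2630 (56.7%, 54.8 to 58.5) in the comparison. The odds ratio was 0.738 (95% interval 0.656 to 0.830, Fisher's exact test, two-sided, Benjamini-Hochberg adjusted p = 7.03e-07 over 6 features). First introns held 21.4% of members against 26.2% (odds ratio 0.765, Fisher's exact test, adjusted p = 0.000193). Intergenic centres made up 913 members (46.9%) against 37.9%. Coding exons held 34 members (1.75% against 2.74%) and untranslated regions 27 (1.39% against 1.71%). Between 1 and 5 kb from a TSS the intronic shares were 59.1% of 489 members and 63.4% of 734 regions, and the difference did not pass the test there (Fisher's exact test, unadjusted p = 0.150). From 5 to 20 kb they were 48.1% and 56.2% (Fisher's exact test, unadjusted p = 0.000240) and from 20 to 50 kb 42.2% and 50.1% (unadjusted p = 0.00620).

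Members stood alone. No other Runx3-bound region was centred within 10 kb of 1606 members (82.6%, 95% interval 80.8 to 84.2), against 55.7% (53.8 to 57.6) of regions inside H3K4me1 (odds ratio 3.77, 3.27 to 4.33, Fisher's exact test, adjusted p = 2.52e-84). The share without another region within 10 kb was 57.6% for regions within 2 kb of the mark. It was 73.0% for those within 1 kb of a TSS and 71.5% for those over 50 kb from a TSS. The median distance to the nearest other Runx3-bound region was 38399 bp for members and 12387.5 bp in the comparison. Only 44 members had another member within 3 kb and 104 within 10 kb. The promoter of the nearest protein-coding gene, taken as a Runx3 peak centred within 1 kb of any of its coding TSSs, was bound for 16.8% of members against 21.0% (odds ratio 0.759, 0.652 to 0.883, Fisher's exact test, adjusted p = 0.000359). Among solitary regions this last difference, 12.6% against 14.8%, did not pass Fisher's exact test (adjusted p = 0.0829).

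Members were also narrower. Their median width was 625 bp (quartiles 526 and 730 bp), against 717 bp (610 and 836 bp) inside H3K4me1 and 704 bp over all 11676 peaks. At least 704 bp wide were 30.5% of members and 53.3% of the comparison (odds ratio 0.384, 0.340 to 0.435, Fisher's exact test, adjusted p = 1.27e-53). The width difference was present among solitary regions, with medians of 625 and 705 bp, and among accompanied ones, with 627 and 727 bp. Width is the sole measure per peak in the list, and how it relates to the number of bound reads was not tested. The 5 widest members had as nearest gene Dyrk1a (2226 bp), Shf (1716 bp), Glp1r (1618 bp), Myo3b (1500 bp) and Chd2 (1489 bp). The first of them is the RUNX motif array shown above. The one of 1618 bp lay in an intron of Dnahc8, 80.8 kb from the Glp1r TSS.

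**Figure D2:**
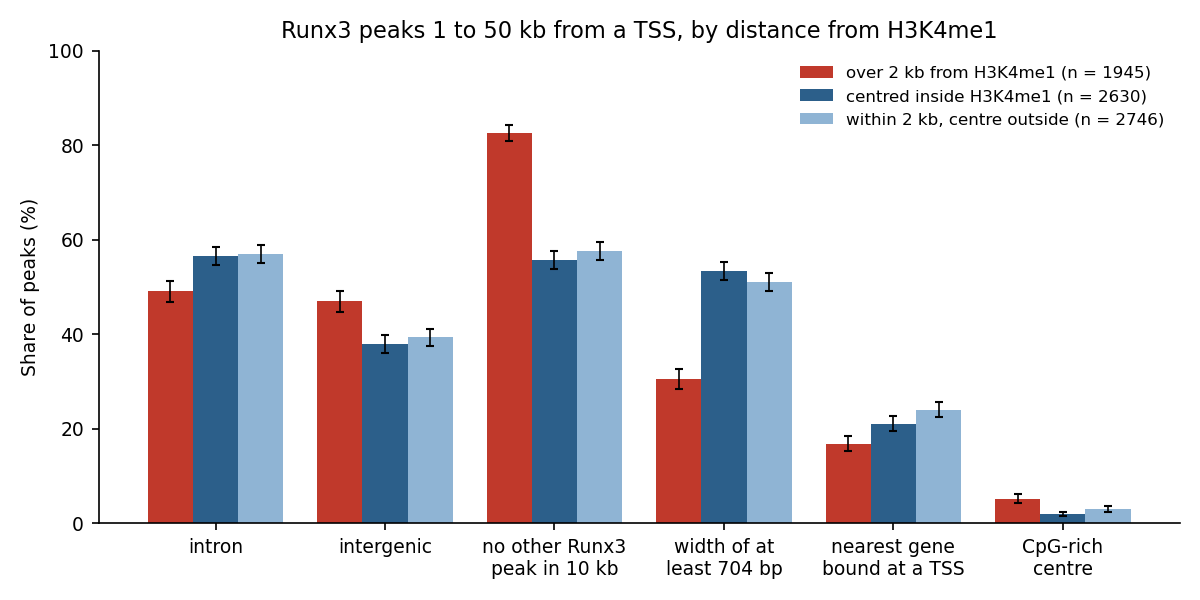
Share of peaks in percent (vertical axis) with each feature, for members (over 2 kb from H3K4me1), regions centred inside H3K4me1 and regions within 2 kb of it, all 1 to 50 kb from a TSS. Bars start at 0 and error bars are 95% Wilson intervals, which cover counting error alone. Members stand apart in solitary position (82.6%) and width (30.5% at or over 704 bp).

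The RUNX motif was more frequent at the centre of members than of regions inside H3K4me1. In the central 200 bp, a window of fixed length around the peak midpoint, 1631 members (83.9%, 95% interval 82.2 to 85.4) held a RUNX motif. The share was 79.2% (77.6 to 80.7) in the comparison and 27.7% of 3852 windows of the same length taken 5 kb to either side of members. The odds ratio of members to the comparison was 1.36 (1.17 to 1.59, Fisher's exact test, adjusted p = 0.000345 over 13 motifs). The lists hold no summit, and the part of peak width in the shares around the midpoint was not tested. The 4 variants of the motif differed in direction. TGTGGT was present in 66.7% of members against 59.8% (Fisher's exact test, adjusted p = 1.43e-05), whereas TGTGGC was in 31.9% against 35.4% (adjusted p = 0.0255). TGCGGT (9.56% against 7.79%, adjusted p = 0.0600) and TGCGGC (4.73% against 3.95%, adjusted p = 0.294) did not pass Fisher's exact test. At 1 to 5 kb from a TSS a RUNX motif was in 82.0% of members and 80.8% of the comparison (Fisher's exact test, unadjusted p = 0.602). Among solitary regions the shares were 84.4% and 81.4%, and neither this difference nor that of TGTGGC passed the test (Fisher's exact test, adjusted p = 0.0864 for both), while that of TGTGGT did. Within 50 bp of the centre there were 10.5 RUNX motifs per kb in members and 8.38 in the comparison, and beyond 400 bp 1.62 and 2.07. Over the whole peak, which is shorter in members, a motif was found in 96.1% of members and 97.1% of the comparison, and this difference did not pass the test (Fisher's exact test, adjusted p = 0.116). No RUNX motif was found in 76 members (3.91%), among them peaks near Bach2, a transcriptional repressor, and Cxcr3, a chemokine receptor of activated NKC. Of these 76, 27.6% held an AP-1 motif in the central 200 bp.

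**Figure D3:**
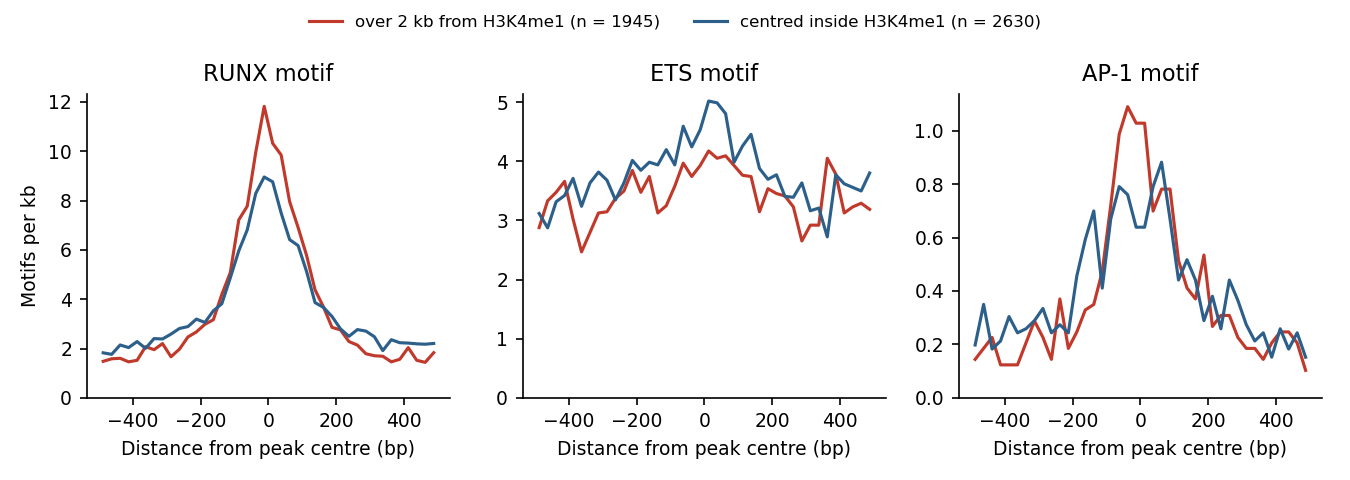
Motifs per kb (vertical axis, from 0) in 25 bp steps against distance from the peak centre in bp (horizontal axis), for members and for regions centred inside H3K4me1, with a separate vertical scale for RUNX, ETS and AP-1. RUNX motifs were more concentrated at the peak midpoint in members, and the central rise of ETS motifs was lower in them.

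A small group of members consisted of long RUNX motif arrays. The median member held 3 RUNX motifs over its whole length and 313 held at least 5. At least 10 were found in 56 members (2.88%, 95% interval 2.22 to 3.72), against 33 regions inside H3K4me1 (1.25%), 21 of those within 2 kb of it (0.765%) and 15 of 2950 regions within 1 kb of a TSS (0.508%). The number 10 was chosen after the counts had been seen, so the difference is given without a test. Of the 141 such regions among all Runx3-bound regions, 56 were members. TGTGGT was the most frequent variant in 47 of the 56, as in the C1ql2 array, where 54 of 55 motifs were of this kind, with 8 bp as the most frequent step from motif to motif. In Dyrk1a the most frequent step was 29 bp, in Stx6 23 bp, in Adam18, a sperm membrane protein, 14 bp (17 of 32 steps), and in Fer, a tyrosine kinase, 32 bp (15 of 24 steps). In 17 of the 56, at least 50% of the steps were of 1 length. Introns held 26 of the arrays and 28 were intergenic. An ETS motif was in the central 200 bp of 6 (10.7%). These repeats can still be mapped in part: of 40-base stretches taken every 50 bp, a median of 94.7% (range 60 to 100) occurred once in the genome, against 100% in the other members. The part of repeated sequence in these peaks was not tested, since the number of reads behind a peak is not listed.

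The ETS motif, bound by factors such as Ets1 and Fli1 that act with RUNX factors in lymphocytes, was less frequent in members. A core of A or C, then GGAA, then A or G, was in the central 200 bp of 990 members (50.9%, 95% interval 48.7 to 53.1), against 58.4% (56.5 to 60.3) inside H3K4me1 (odds ratio 0.738, 0.656 to 0.831, Fisher's exact test, adjusted p = 6.58e-06). Regions within 2 kb of the mark had it in 62.0%, those within 1 kb of a TSS in 61.1% and those over 50 kb from a TSS in 60%. Windows 5 kb from members had it in 45%, and those 5 kb from the comparison in 43.3%. The share in members thus lay 5.94 percentage points above that in their flanks, against 15.2 points in the comparison. The shares at 1 to 5 kb from a TSS were 50.5% and 57.4%, at 5 to 20 kb 50.9% and 58.1%, and at 20 to 50 kb 51.2% and 60.1%, so members had the lower share in each range. With only regions of 45 to 55% central GC, the shares were 52.3% and 60%.

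AP-1, the Fos and Jun heterodimer that is induced on lymphocyte activation, showed a small difference in the other direction. Its motif TGACTCA was in 16.0% of members, 13.3% of regions inside H3K4me1 (odds ratio 1.25, 1.06 to 1.47, Fisher's exact test, adjusted p = 0.0204), 15.8% of regions within 2 kb of the mark, and 3.27% of flanking windows. The difference did not pass Fisher's exact test against all other regions at 1 to 50 kb (14.6%, adjusted p = 0.259), and over the whole peak AP-1 was in 26.9% of members against 30.0% of regions inside H3K4me1. A GATA motif (AGATAA) was in 7.66% against 5.48% (Fisher's exact test, adjusted p = 0.0108), but the windows 5 kb from members held it in 11.1%. A CTCF core (AG, then G or A, then G or T, then GGC) was in 14.2% against 17.1% (Fisher's exact test, adjusted p = 0.0204), with 12.9% and 16.8% in the respective flanks. The GATA and CTCF differences did not pass among regions of 45 to 55% central GC. T-box (8.17% against 7.79%), STAT (6.74% against 6.39%), SP1 (4.73% against 5.55%) and NFAT motifs (3.08% against 2.78%) were not called. SP1 was called over the whole peak (10.2% against 16.7%, Fisher's exact test, adjusted p = 7.91e-10) and at 5 to 50 kb from a TSS (3.02% against 5.12%, Fisher's exact test, adjusted p = 0.00792), while at 1 to 5 kb its shares were 9.82% and 6.68%. T-box was called over the whole peak (17.4% against 23.8%, Fisher's exact test, adjusted p = 3.34e-07). The strings searched were AGGTGTG for T-box, TTC and GAA with 3 bases between for STAT, GGGCGG for SP1, and TGGAAAA for NFAT, on both strands.

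**Figure D4:**
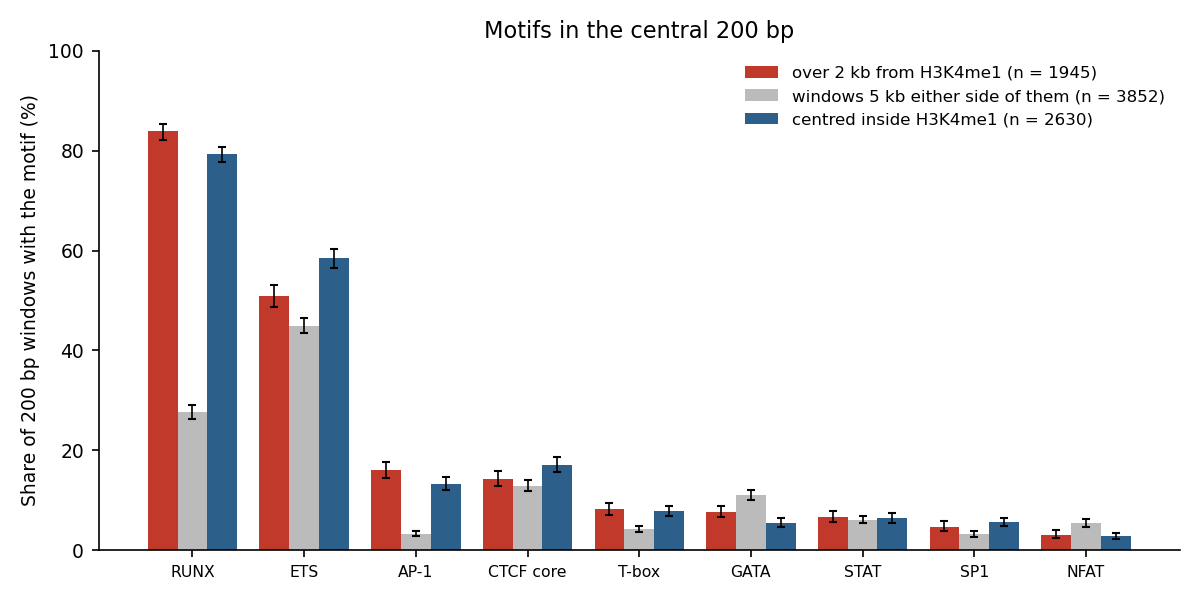
Share in percent (vertical axis) of 200 bp windows that hold each motif: the central windows of members, windows 5 kb to either side of them, and the central windows of regions inside H3K4me1. Error bars are 95% Wilson intervals for counting error. RUNX was in 83.9% of members and 27.7% of their flanks, ETS in 50.9% and 45%.

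In base composition members were less GC-rich than regions inside H3K4me1, yet held more CpG-rich sites. The median GC content of the central 200 bp was 48.5% in members and 52.0% in the comparison. It was 49% in regions within 2 kb of the mark and 48.5% in those over 50 kb from a TSS. The lower GC content was thus not particular to members. Of all 2080 6-base words, counted with their reverse complement, 574 (27.6%) differed in share between members and the comparison (Fisher's exact test, adjusted p under 0.05), 280 of them more frequent in members and 294 less frequent. The 10 with the smallest p were all less frequent in members. The first was CCCAGG, in 15.3% of members against 26.3% (Fisher's exact test, adjusted p = 3.18e-16). Of these 10 words, 8 passed in regions of 45 to 55% central GC, where 47 of all 2080 words passed. The flanks differed too, with CCCAGG in 18.5% of windows near members and 24.1% near the comparison. AGGAAG, which holds an ETS core, ranked 15 with 30.2% against 39.7% (Fisher's exact test, adjusted p = 3.90e-09), and its flanks differed little, at 23.7% and 25%.

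CpG-rich centres, with at least 50% GC and an observed to expected CpG ratio of at least 0.6, made up 101 members (5.19%, 95% interval 4.29 to 6.27) and 1.86% (1.41 to 2.45) of the comparison (odds ratio 2.89, 2.04 to 4.08, Fisher's exact test, adjusted p = 1.37e-09). Such sites are typical of promoters, and their share fell with distance from an annotated TSS, from 9.41% of members at 1 to 5 kb to 4.65% at 5 to 20 kb and 2.44% at 20 to 50 kb. In the comparison the shares were 3.13%, 1.39% and 1.34%, and at 20 to 50 kb the difference did not pass the test (Fisher's exact test, unadjusted p = 0.205). The CpG-rich members used other RUNX variants, with TGTGGT in 27.7% against 68.8% of the remaining members, and 29.7% were intronic against 50.2%. The widest were near Shf, an adaptor protein (1716 bp), Chd2, a chromatin remodeller (1489 bp, 16.6 kb upstream of the TSS), Ang, angiogenin (1453 bp), and Id2, an inhibitor of E proteins needed for NKC development (1307 bp).

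Members farther from H3K4me1 were richer in the main RUNX variant. TGTGGT was in the central 200 bp of 55.8% of the 278 members 2 to 5 kb from the mark, 66.5% of the 1009 at 5 to 50 kb and 71.6% of the 658 beyond 50 kb. ETS shares were 52.9%, 50.1% and 51.2% in the same order, and AP-1 shares 16.9%, 16.2% and 15.5%. Median width was 647, 632 and 612 bp. The nearest gene was also bound at a promoter for 23%, 18.9% and 10.9% of them. These are descriptions along a measure that chose the members, and they were not tested.

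By the nearest protein-coding TSS, the members were assigned to 1696 of 22232 protein-coding genes (7.63%), against 1926 genes (8.66%) for the regions inside H3K4me1. Of the 1696 genes, 1482 had 1 member, 185 had 2, 23 had 3 and 6 had 4. For 1150 of them (67.8%) no Runx3-bound region at 1 to 50 kb inside or within 2 kb of H3K4me1 was assigned, though further members could be. Of the 1696 genes, 297 also had a region inside H3K4me1. Nearest is not always near, since the rule counts all transcripts, with 282 members (14.5%) over 50 kb from a coding TSS. Of the 955 intronic members, 751 lay within the gene of that nearest TSS. Expression was not part of these data, so an assignment says only which gene lies nearest.

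The 6 genes with 4 members were Aff3, a nuclear protein of lymphoid cells, Ccny, a cyclin, Glp1r, the receptor of the hormone GLP-1, Prdm1, which encodes Blimp-1, a transcriptional repressor that acts in terminal lymphocyte differentiation, Tiam1, an activator of the GTPase Rac, and Tmsb4x, the actin-binding thymosin beta 4. The 4 Aff3 members were all intronic and followed each other over 215618 bp with no other Runx3-bound region between them, and lay 31.7 to 230.0 kb from H3K4me1. The Prdm1 members were intergenic and upstream, at 73.9, 106, 151 and 242 kb from its TSS. Those of Glp1r lay in intronic sequence of Dnahc8, 80.8, 82.4 and 83.5 kb from the Glp1r TSS, and in an intron of Glp1r at 22.2 kb. The Tmsb4x members, on the X chromosome, were intergenic and downstream, at 2.84, 97.5, 184 and 282 kb from its TSS. Next by symbol among the genes with 3 members came Arhgap26, Cblb, Cd28 and D430041D05Rik. Cblb, a ubiquitin ligase that restrains lymphocyte activation, had members 22.8, 284 and 326 kb upstream. The Cd28 members, beside the gene of a T cell costimulatory receptor, were 9.27 kb downstream in an intron and 43.6 and 68.9 kb upstream.

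Each list of genes of NKC function had a higher share nearest to a member than the 7.63% of all genes, but so did lists of neuronal genes and of T and B cell markers. This depended in part on the assignment by nearest TSS. Under the GREAT rule, which assigns by a domain around each gene, the share was 13.6% over all genes. Cytotoxic granule genes (11.5%) and neuronal genes (13.0%) then lay below it, and the other lists of NKC function above it. The NKC function lists were also bound by Runx3 more often in general, with 63.6 to 90.7% of their genes nearest to some Runx3-bound region against 29.9% of all genes. Among genes so bound, the share with a member was 25.5% over all genes, and lay below it for cytotoxic granule genes (15%), cytokines and their receptors (16%), receptor-proximal signalling (21.6%) and NK receptors (25%). It lay above it for trafficking (28%), JAK-STAT (28.6%) and transcription factor genes (40.8%), and for the study's proliferation genes (53.3%) and NKC markers (42.9%). Neuronal genes (71.4%), T cell markers (50%) and B cell markers (50%) lay above it as well. Cytosolic ribosomal protein genes (8.33%) and myeloid markers (0%) lay below it. The marker and neuronal shares rest on few genes so bound, 7 for NKC, 4 for T cells, 2 for B cells, 3 for myeloid cells and 7 for neuronal genes. The lists overlap in part and are described by counts with no test. Genes encoding transcription factors of NK and T cells, the longest list, had a member for 20 of 54 (37.0%) against 7.63% of all protein-coding genes, and 26 (48.1%) had a region inside H3K4me1. Of this list, 49 genes were nearest to some Runx3-bound region.

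The 20 transcription factor genes had 32 members, of which 31 held a RUNX motif. The nearest to a TSS were those of Gata3 (1.09 kb, 531 bp wide, 4 motifs), Satb1 (1.11 kb, 4 motifs), Smad3, a mediator of TGF-beta signals (1.25 kb, 2 motifs), and Fli1, an ETS factor (1.97 kb, 3 motifs). They lay 2.79, 4.6, 3.39 and 4.27 kb from the next H3K4me1 interval. The Gata3 centre was 64.0% GC and also held an AP-1 motif. Of the 20 genes 7 had a Runx3-bound promoter as well, among them Id2, Bcl6, Eomes, Elf1 and Prdm1. At 13 of the 32 members the TSS was over 50 kb away, up to 1256 kb for a pair in the gene desert beside Zeb2, a factor of terminal NKC maturation.

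Among NK receptor genes, 6 of 36 (16.7%) had members, against 12 (33.3%) with a region inside H3K4me1. These were Fcgr3, the Fc receptor CD16 (2.41 and 9.57 kb), Klra7, a Ly49 receptor (12.7 kb), Klrk1 (14.2 kb), Ncr1 (26.3 kb), Ctla4, an inhibitory receptor (33.8 kb), and Cd226, the activating receptor DNAM-1 (107 kb). All 7 members held a RUNX motif, and the promoters of Fcgr3, Klrk1 and Ncr1 were bound too. The Ly49 genes are a family of related genes, and Klra7 is named for its TSS while the member lay in an intron of Klra9.

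Genes of cytotoxic granules and killing had 3 of 26 with a member (11.5%, and 26.9% with a region inside H3K4me1). They were Nkg7, a granule membrane protein (1.60 kb), Fasl (16.2 kb, 1003 bp wide with 9 RUNX motifs) and Ctsc, the protease that activates granzymes (41.7 kb, and 113 kb from H3K4me1). Among cytokines and their receptors 4 of 30 (13.3%) had a member, against 16 (53.3%) with a region inside H3K4me1. These 4 were receptor genes: Ifnar1 (9.24 kb), Il4ra (12.8 kb), Il6ra (25.4 kb) and Il12rb2 (48.8 kb, in an intron of Il23r). For JAK-STAT genes the counts were 4 (18.2%) and 3 (13.6%) of 22. The 4 were Pim2, a survival kinase (12.8 kb), Jak2 (15.0 kb), Stat5b, the main STAT downstream of IL-2 (17.8 kb, intronic, 5 RUNX motifs), and Jak1 (51.7 kb).

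Of the trafficking genes, which encode integrins, chemokine receptors and surface proteins of migrating cells, 7 of 30 (23.3%) had members and 12 (40.0%) a region inside H3K4me1. Cd69, an early activation marker, had members 1.52 kb downstream and 9.24 kb upstream, and Cd53, a leukocyte tetraspanin, 1 at 1.84 kb. Itga4 had 3 intronic members, at 11.2, 11.9 and 14.7 kb from its TSS and 146 to 149 kb from H3K4me1.

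Receptor-proximal signalling genes had 8 of 44 (18.2%) with members and 16 (36.4%) with a region inside H3K4me1. The members nearest to a TSS were those of Pik3cd, the leukocyte PI3-kinase subunit (8.09 kb), Cd28 (9.27 kb), Rasgrp1, a Ras activator (14.2 kb), and Ptprc, which encodes CD45 (18.1 kb). For the proliferation genes named by the study the counts were 8 (47.1%) and 7 (41.2%) of 17. The study chose that list on these samples, so its share is not independent evidence. It included Smad3, Myc with members at 1.98, 258 and 847 kb, and Tspan32, a tetraspanin (9.88 kb).

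Of 8 NKC marker genes, 3 (Eomes, Klrk1 and Ncr1) had a member and 7 were nearest to some Runx3-bound region. T cell markers had 2 of 8 (Cd28 and Cd5), B cell markers 1 of 8, which was Ebf1 with a member 305 kb from its TSS and no RUNX motif, and myeloid markers 0 of 7. Peaks measure binding and not expression, and the identity of the cells cannot be checked by them. Cytosolic ribosomal protein genes, which serve as a contrast, had 2 of 49 (4.08%), Rpl11 and Rpl38. Neuronal genes, a further contrast, had 5 of 23 (21.7%) with a member but 1 (4.35%) with a region inside H3K4me1. The 5 were Cntnap2, an axonal adhesion protein (6.79 kb), Rbfox3, a splicing factor (7.49 kb), Dscam, an adhesion molecule (13.9 kb), Gria2, a glutamate receptor subunit (93.5 kb), and Dlg2, a synaptic scaffold (116 kb). These members lay 18.6 to 855 kb from H3K4me1, and 4 of the 5 members held a RUNX motif.

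**Figure D5:**
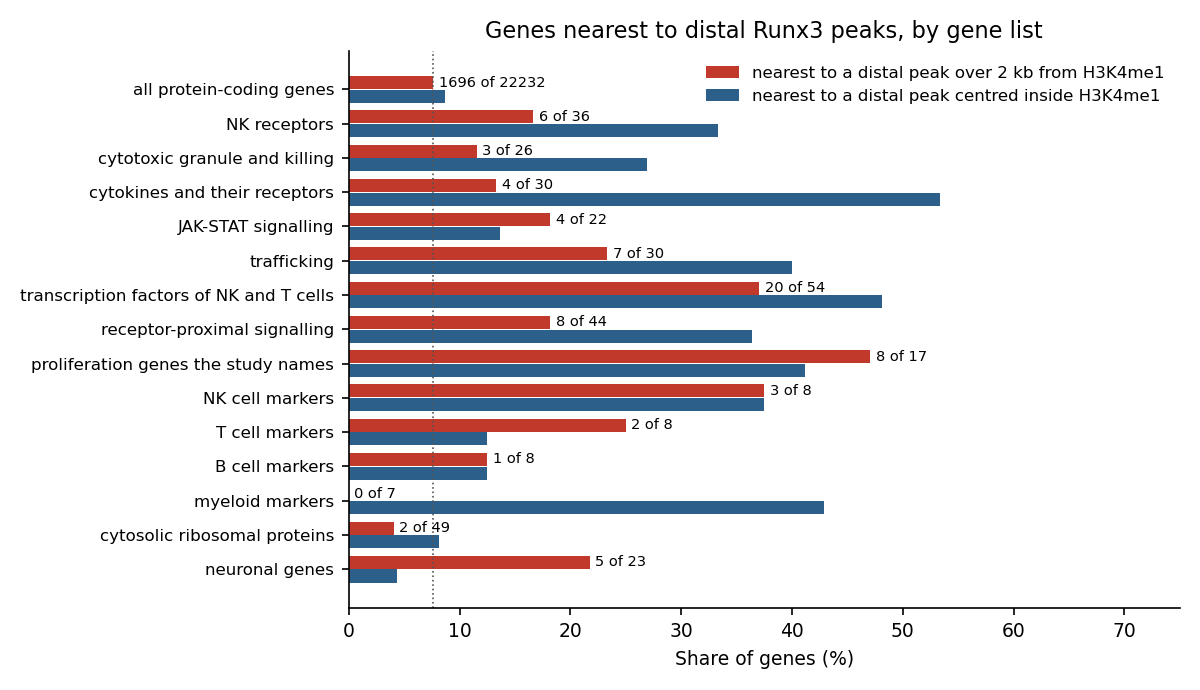
Share of genes in percent (horizontal axis) nearest to at least 1 member or to at least 1 region centred inside H3K4me1, for all protein-coding genes and each gene list, with counts of genes with a member beside the bars and the share over all genes (7.63%) as a dotted line. The lists of NKC function lie above that line, but so do neuronal genes at 21.7%, and ribosomal proteins lie below it at 4.08%. Under the GREAT rule, not drawn, cytotoxic granule and neuronal genes lay below the share over all genes.

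The X chromosome differed from the rest in the lists. It held 60 Runx3-bound regions, against 349 to 891 on each autosome. Of the 42 at 1 to 50 kb from a TSS, 32 (76.2%) were members, against 1913 of 7279 (26.3%) on the autosomes. The autosomal share ran from 18.3% on chromosome 17 to 37.0% on chromosome 3. The H3K4me1 list held 51 intervals on the X chromosome, 0.850 for each Runx3-bound region, against 2.21 to 3.59 on the autosomes. The part of this low number in the selection of X-linked members was not tested. The 32 X-linked members and the 1913 others had a RUNX motif in 87.5% and 83.8%, TGTGGT in 78.1% and 66.5%, an ETS motif in 65.6% and 50.7%, a nearest gene bound at its promoter in 6.25% and 17.0%, and a median width of 619.5 and 625 bp. These differences were not tested. Without the X chromosome the shares of intronic, solitary, wide and CpG-rich members each differed from the comparison in the same direction and past the threshold.

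Reads had been kept only where they aligned to a single place. In members a median of 100% and a mean of 98.0% of sampled 40-base stretches of the peak occurred once in the genome, against 100% and 98.8% inside H3K4me1. In the 2 kb to either side, where an H3K4me1 interval would have excluded a region, the medians were 96.3% and 97.5% and the means 93.8% and 95.5%. The flanks of members were thus slightly less mappable, and the part of this in the selection was not tested.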

How the data were processed

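ChIP-seq of IL-2-activated splenic NKC comprised 2 Runx3, 2 NIS and 1 H3K4me1 libraries. The authors aligned short reads (40 bp per the labels) to mm9 with ELAND, kept unique alignments and called peaks with MACS against NIS after joining replicates and scaling the larger dataset to the smaller. The deposited lists, of 11676 Runx3 and 34204 H3K4me1 peaks, hold positions only, with starts counted from 0 and printed here from 1. They hold no score, count, fold or p-value, so the depth behind a peak is unknown here, and intervals cover counting error alone.

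Peaks were joined to GENCODE M1 and to the NCBIM37 genome with samtools 1.23.1, pysam 0.24.0, numpy 2.4.6 and pandas 2.3.3. Gene part was read at the centre in the order coding exon, UTR, other exon, intron, intergenic. Sets were compared with two-sided Fisher's exact tests (scipy 1.17.1), adjusted by Benjamini-Hochberg over 6 features, 13 motifs or 2080 6-base words, with 0.05 as threshold. Scripts were tested on simulated data. The tests of first introns and bound promoters were added after the data had been seen. Named genes were, by rule, the 10 with the most members, up to 4 per list with a member nearest their TSS, and the members with the most RUNX motifs, the widest, the farthest from H3K4me1 and those at the limits. Other genes named, such as further members of a list, those with no RUNX motif or CpG-rich, were chosen after their values were seen. Members and gene lists were chosen with earlier results of these data known. The gene lists are hand-made from general knowledge, apart from the proliferation genes, which the study names.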

Additional observations from a re-analysis of the deposited data

How the results depend on the processing

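Outside the separate ranges of TSS distance, the intronic, CpG-rich, solitary and wide-peak differences kept their direction and passed the threshold under every alternative run. Alternatives added after seeing the data (autosomes, 45 to 55% central GC, no motif arrays) are included. So did the lower ETS and higher TGTGGT shares in every such alternative on windows at the centre. Within the ranges, the intronic difference at 1 to 5 kb and the CpG-rich one at 20 to 50 kb did not pass. TGTGGT was in 61.6% of members and 60.8% of the comparison at 1 to 5 kb (Fisher's exact test, unadjusted p = 0.811). The bound-promoter odds ratio among solitary regions was 0.832 and did not pass. Of 13 motifs, 7 passed, but 3 did against all other regions at 1 to 50 kb, 3 among solitary regions, 4 at 45 to 55% GC and 3 in the central 100 bp. Called 6-base words fell from 574 to 289, 360, 47 and 214 in the same order. The GREAT rule gave 3014 genes in place of 1696. Odds ratios turned below 1 over the whole peak, which is shorter in members, for RUNX (0.742), TGTGGT (0.854), TGCGGT (0.979), TGCGGC (0.742), AP-1 (0.860), T-box (0.674), NFAT (0.955) and STAT (0.981), of which TGCGGC, AP-1 and T-box passed the threshold. STAT also turned against all other regions (0.911), at 5 to 50 kb (0.950) and at 45 to 55% GC (0.890), as did NFAT at 45 to 55% GC (0.969) and TGCGGC among solitary regions (0.988), while SP1 turned above 1 in the central 100 bp (1.17). SP1 passed at 5 to 50 kb (0.578) and over the whole peak (0.566). The cause of these shifts was not tested. Between 1667 and 2264 members resulted from other limits of the rule. No paired analysis was possible because the replicates were joined before peaks were called. For the same reason no replicate could be left out. The planned share of masked repeats was not run, since the reference used here does not mark repeats.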
